A study of Homo sapiens with 13 samples.

Results

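TE-7, an established human cell line labelled as esophageal epithelium, was left untreated and its RNA was sequenced at 2 hr and at 6 hr, and the comparison of these 2 control libraries is described here. The series holds 13 samples, among them 6 RNA libraries: untreated controls at 2, 6 and 24 hr and cells treated over the same times with 100 ng/ml of IL-13 (interleukin-13), a cytokine of allergic inflammation. All were grown in RPMI medium with 5% fetal calf serum, and each group is 1 library. The labels do not say what was done to the control cells at time 0 or whether the libraries came from separate cultures. The unit is RPKM, read counts scaled to exon length and to the depth of the library. Of 23637 genes, 12001 reached 1 RPKM in either control, 11849 of these had a gene span of at least 300 bp, and 39 of those were set aside because they are on a list of brain transcripts. That left 11810 genes. For each, the log2 ratio of (RPKM + 0.1), 6 hr over 2 hr, was centred on the median of genes at 1 RPKM or more, which was 0.10. A gene is called lower or higher when its centred ratio is 1 or more in size, a 2-fold difference. With 1 library at each time, this rule of size carries no p-value.

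Cells that receive fresh serum, are moved or are stressed switch on immediate early genes within minutes through MAP kinases, the serum response factor SRF and CREB. The products are transcription factors such as FOS and EGR1, secreted factors, and the inhibitors that end the signal, and most of these RNAs and proteins are short-lived. NF-kB drives a partly overlapping set of cytokine genes in epithelium. Squamous epithelial cells also release EGF family ligands, which act back on the cells' own EGF receptor.

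Features of the libraries touch every value below. By a fit to the deposited values, the controls at 2 and 6 hr each appear to be the mean of 2 read sets. In that fit 1 set of 15.7 M (mega) reads entered both, and the other set held 26.9 M reads at 2 hr and 15.3 M at 6 hr. The shared set was fitted at 15.7057 M reads in each control. There were 359 genes with identical values above 0 in the 2 controls, and none in any other pair of RNA libraries. Which time the cells of the shared set were taken at is not given in the labels, so a value called 2 hr or 6 hr below is the deposited one. Squamous markers were present, with 8 of 9 at 1 RPKM or more in both controls and summed levels of 5445 RPKM at 2 hr and 4117 RPKM at 6 hr. Endothelial markers reached 1 RPKM for none of 3, and leukocyte and fibroblast markers for 1 of 4 and 1 of 5. Brain transcripts were found in the control at 2 hr. Of 124 listed brain genes 39 reached 1 RPKM there, against 23 to 25 in each of the other 5 RNA libraries, and SNAP25, a synaptic protein, stood at 3.57 RPKM against 0 in the control at 6 hr. The 4 listed genes with the highest levels were present in both controls. TUBB3 stood at 62.8 and 62.9 RPKM at 2 and 6 hr, CAMK2N1 at 21.0 and 16.3, SLC1A3 at 20.6 and 21.6 and ENC1 at 16.7 and 3.85.

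By the deposited values, genes past 2-fold were nearly all lower at 6 hr, while between the read sets found in only 1 control, described further on, many were higher as well. Of 11810 genes, 310 were at least 2-fold lower at 6 hr, which is 2.62%, and 8 were higher, which is 0.0677%. There were 60 genes at least 4-fold lower and 1 at least 4-fold higher. The other end of the scale was crowded, as 10566 genes (89.5%) had a ratio under 0.5 in size. The ratios form a continuous range: the nearest ones on either side of the limit both rounded to -1.0 for lower genes, and were 1.01 and 0.95 for higher genes. The 310 lower genes had a median of 12.8 RPKM at 2 hr and 4.47 RPKM at 6 hr. In bulk RNA, fewer cells that express a gene and less of its RNA per cell cannot be told apart.

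The same interval was measured in the IL-13 treated cells, in libraries that share no sample with the controls. There 379 of 11870 genes (3.19%) were lower and 25 (0.211%) were higher by the same rule. Of the 310 genes lower in the controls, 308 had a ratio below 0 in the IL-13 pair and 279 were at least 2-fold lower, with a median of -1.47 against -1.45 in the controls. Of the 8 higher genes, 7 were above 0 and 3 were past 2-fold. The exceptions among the lower genes were LOXL4, a lysyl oxidase, and the read-through gene TMX2-CTNND1. LOXL4 stood at 4.87 and 2.19 RPKM in the controls and at 8.37 and 9.05 RPKM with IL-13.

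**Figure D1:**
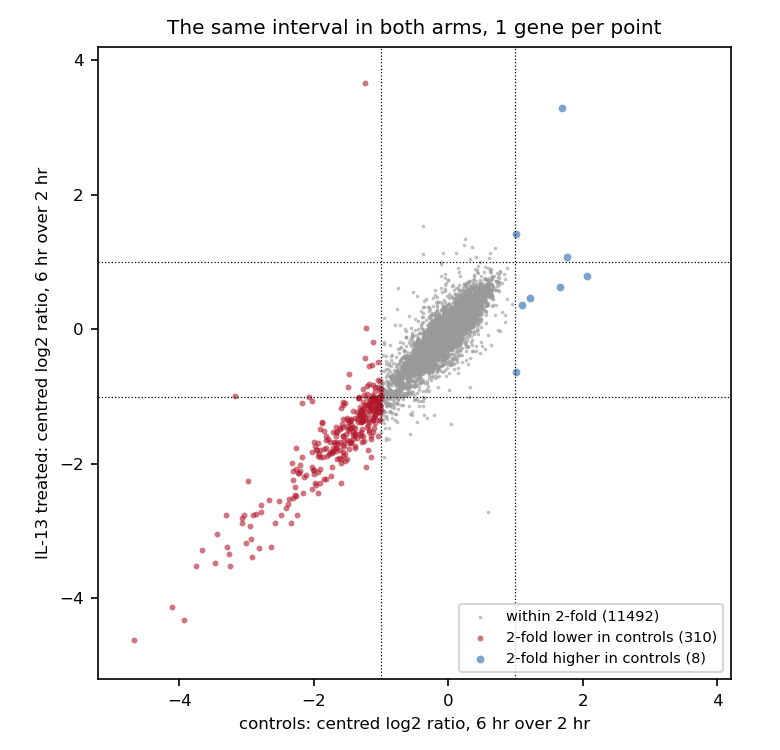
Centred log2 ratio of 6 hr over 2 hr in the untreated cells (x axis) and in the IL-13 treated cells (y axis), 1 point for each of 11810 genes, with dotted lines at 2-fold. The 310 genes lower in the controls (red) lie below 0 on the y axis with 2 exceptions, while the 8 higher genes (blue) are scattered.

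A model of the time effect over both arms was fitted with limma to the 4 libraries of 2 and 6 hr, with treatment as a term. Of 11807 genes tested, 2511 (21.3%) fell and 3363 (28.5%) rose at a Benjamini-Hochberg adjusted p under 0.05. Most of these changes were small, with a median of -0.39 among those that fell and 0.28 among those that rose, on the log2 scale. Only 303 fell and 4 rose by 2-fold or more. Of the 310 lower genes 302 were tested and 300 fell, and of the 8 higher genes 7 were tested and 6 rose. These genes were chosen by control values that the model also uses, so this overlap was largely fixed in advance. The fit has 1 residual degree of freedom, and its calls depended on the setting and on single libraries. Without the treatment term 1350 fell and 1261 rose. With that term left out and 1 library removed, the calls were 140 and 8 without the control at 2 hr, 191 and 3 without the IL-13 library at 2 hr, 1359 and 795 without the control at 6 hr and 1070 and 627 without the IL-13 library at 6 hr. Of the 310 lower genes, 125 to 298 fell in these 4 fits. With no minimum level no gene passed in limma in either direction, although 2987 and 3827 had an unadjusted p under 0.05.

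Cytokines and chemokines were lower at 6 hr for the most part. Of 25 listed genes 16 reached 1 RPKM, 13 of these were lower and none was higher, and the median ratio was -2.0, against 0.00 over all genes, of which 2.62% were lower. Some of these genes were low, and passed the minimum only through the 2 hr control: the median was -1.35 with a pseudocount of 1 and -1.20 with no minimum level. IL8 (chromosome 4, 74606223 to 74609433, plus strand, hg19), a chemokine that attracts neutrophils, stood at 172 RPKM at 2 hr and 7.15 RPKM at 6 hr in the controls, and at 212 and 9.11 RPKM with IL-13. Both 2 hr libraries were high and both 6 hr libraries low, without overlap, and the control at 24 hr again held 59.3 RPKM. The fall passed the time model (limma, log2 change -4.60, SE 0.0444, adjusted p 0.000714). IL8 was named for its control ratio, which the model also uses. The SE measures only how alike the 2 arms were, and mostly as pooled over all genes tested rather than for the gene itself. The same holds for the other genes given with an SE below. CCL20, which draws immature dendritic cells and Th17 cells, was at 2.43 and 0.0779 RPKM in the controls and at 1.77 and 0 RPKM with IL-13. In the time model 12 of 14 tested genes of the list fell and 1 rose. Over all genes tested 21.3% fell and 28.5% rose, the background for the time model counts of every list below. IL24, of the IL-10 family, was at 5.88 and 0.408 RPKM, and was listed at 0 at 24 hr.

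IL11 and LIF both signal through the gp130 receptor chain. IL11 stood at 22.2 RPKM at 2 hr and 2.77 RPKM at 6 hr in the controls, and at 14.7 and 2.05 RPKM with IL-13. LIF stood at 39.9 and 6.14 RPKM, with 36.7 and 6.33 RPKM in the treated cells. IL36G, an epithelial member of the IL-1 family, was low throughout and went from 1.82 to 0.328 RPKM. Not every cytokine took part: CXCL1, which shares its receptor with IL8, stood at 50.8 and 43.6 RPKM, a ratio of -0.32.

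**Figure D2:**
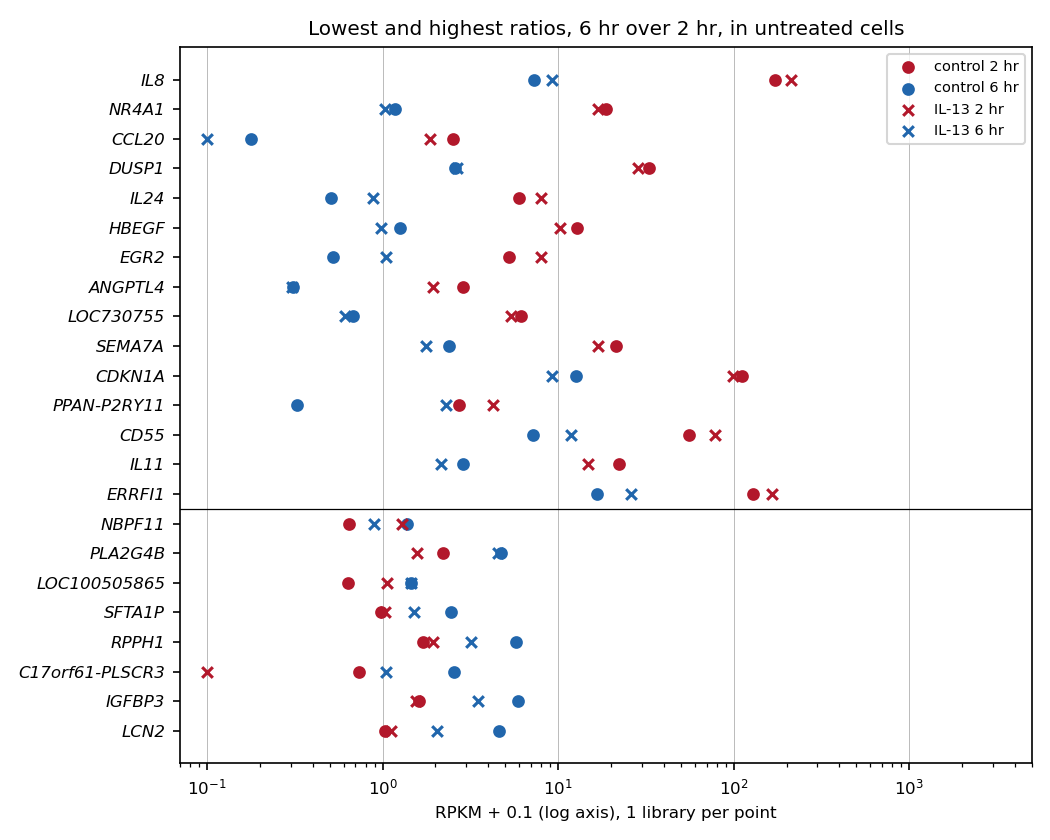
RPKM + 0.1 on a log axis for the 15 genes with the lowest ratios (above the line) and the 8 higher genes (below it), with controls as circles, IL-13 libraries as crosses, 2 hr in red and 6 hr in blue. For the genes above the line the 2 hr values of both arms lie to the right of both 6 hr values, as for IL8 at 172 and 212 against 7.15 and 9.11 RPKM, and below the line the arms are less alike.

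EGF family ligands and other secreted growth signals had 15 of 19 genes lower, none higher and a median of -1.98, which was -1.67 with a pseudocount of 1 and -1.69 with no minimum level. Their median and that of the cytokines have no fixed order, as it was -2.09 against -1.76 in the IL-13 pair. Of the 19, 17 fell in the time model and none rose. HBEGF (chromosome 5, 139712428 to 139726188, minus strand), a ligand of the EGF receptor, stood at 12.7 and 1.15 RPKM in the controls and at 10.1 and 0.877 RPKM with IL-13 (limma, log2 change -3.42, SE 0.0410, adjusted p 0.000897). AREG, another such ligand, whose reads may be divided with a near-identical copy, was far more abundant at 174 and 35.7 RPKM. The remaining ligand named here, EREG, stood at 2.81 and 0.672 RPKM. Genes of other secreted signals were lower as well. INHBA, the activin subunit, went from 57.1 to 8.34 RPKM, PTGS2, the inducible prostaglandin synthase, from 17.6 to 2.61 RPKM, and EDN1, the endothelin precursor, from 7.22 to 1.23 RPKM.

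All 33 listed immediate early transcription factors reached 1 RPKM. Of these 19 were lower, none was higher, and the median was -1.06. In the time model 30 of 32 tested fell and 1 rose. NR4A1 (chromosome 12, 52445186 to 52453291, plus strand), an orphan nuclear receptor, stood at 18.6 and 1.07 RPKM in the controls and at 16.8 and 0.929 RPKM with IL-13, and returned to 16.4 RPKM in the control at 24 hr. EGR2, a zinc finger factor, stood at 5.12 and 0.419 RPKM, and MAFF, a small MAF protein, at 41.4 and 5.73 RPKM. The classical members were lower by less: JUN stood at 42.7 and 9.44 RPKM, EGR1 at 32.7 and 12.7, and FOS at 8.47 and 4.12. FOSL1, the most abundant AP-1 subunit of the list, stood at 437 and 148 RPKM. Below the limit was MYC at 182 and 100 RPKM. ID1 and ID3, inhibitors of differentiation, were the exceptions with ratios above 0, with ID1 at 46.1 and 56.6 RPKM and ID3 at 18.0 and 25.9 RPKM.

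The inhibitors of the same signals were lower too. Of 14 MAP kinase feedback inhibitors, 8 were lower, none was higher, and the median was -1.55. Of the 14, 12 fell in the time model and none rose. DUSP1 (chromosome 5, 172195093 to 172198203, minus strand), a nuclear phosphatase that inactivates MAP kinases, stood at 32.7 and 2.50 RPKM in the controls and at 28.3 and 2.55 RPKM with IL-13 (limma, log2 change -3.59, SE 0.0760, adjusted p 0.00119). ERRFI1, which blocks the EGF receptor kinase, stood at 128 and 16.6 RPKM, with 165 and 26 RPKM in the treated cells. DUSP5 and DUSP6, phosphatases of ERK, stood at 66.9 and 12.5 RPKM and at 94.3 and 30.7 RPKM. DUSP4 and DUSP10 were lower from 16.1 to 4.15 RPKM and from 13.1 to 3.68 RPKM.

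Among regulators of mRNA decay and growth arrest, 14 of 22 were lower and none was higher, with a median of -1.19, and 20 of the 22 fell in the time model. CDKN1A (chromosome 6, 36646487 to 36655116, plus strand), the cyclin-dependent kinase inhibitor p21, stood at 112 RPKM at 2 hr and 12.5 RPKM at 6 hr in the controls, and at 99.1 and 9.12 RPKM with IL-13. ZFP36L1, which binds AU-rich elements and speeds the decay of cytokine mRNAs, stood at 86.6 and 24.9 RPKM. The pseudokinase TRIB1 and the growth arrest gene GADD45A were both lower by 3.26-fold. The 15 lowest ratios of all also held CD55, which protects cells from complement, at 55.9 and 7.11 RPKM, SEMA7A, a membrane semaphorin, at 21.2 and 2.28 RPKM, ANGPTL4, an inhibitor of lipoprotein lipase, at 2.76 and 0.209 RPKM, and LOC730755 at 6.07 and 0.575 RPKM. The read-through gene PPAN-P2RY11 was among them as well, at 2.62 and 0.224 RPKM, but it overlaps other genes, so its reads are uncertain, and with IL-13 it stood at 4.18 and 2.20 RPKM.

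SRF and YAP targets of the cytoskeleton were split. Of 18 genes 6 were lower, none was higher, and the median was -0.65. Of the 18, 16 fell in the time model and 1 rose. THBS1, a matrix glycoprotein, was the most abundant of the 6 at 581 and 196 RPKM in the controls and 990 and 309 RPKM with IL-13. The small GTPase RND3 stood at 75.2 and 20.6 RPKM, TAGLN, an actin-binding protein, at 77.2 and 23.4, CYR61, a matricellular YAP target, at 127 and 40.9, PHLDA1 at 138 and 40.7, and the LIM protein FHL2 at 183 and 73.8.

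Other stress and signalling lists had few lower genes. With limma, 10 of 19 NF-kB subunits and targets fell and 2 rose, against 21.3% and 28.5% of all genes tested. By size 2 of the 19 were lower, with a median of -0.27: TNFAIP3, the ubiquitin-editing inhibitor A20, stood at 36.4 and 5.06 RPKM, and ZC3H12A, an RNase of cytokine mRNAs, at 9.89 and 5.19 RPKM, a ratio of -1.02 that did not reach 2-fold without centring. NFKBIA, the main inhibitor of NF-kB, stood at 51.5 and 34.4 RPKM, below the limit. Interferon-stimulated genes had 5 of 19 lower and a median of -0.69, and all 19 ratios were below 0. Of these, 17 fell in the time model. IFI6 stood at 76.5 and 31.3 RPKM and the RNA sensor DDX58 at 40.5 and 18.0 RPKM. IFIH1 and RSAD2 had ratios of -1.11 and -1.12, and OASL one of -1.01, not 2-fold without centring, at 51.6 and 27.3 RPKM. OASL reached 312 RPKM in the control at 24 hr.

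Of the unfolded protein and amino acid response, 3 of 19 genes were lower: the cystine transporter SLC7A11 at 14.2 and 5.05 RPKM, the chaperone DNAJB9 at 8.73 and 3.71 RPKM and asparagine synthetase, ASNS, at 140 and 61.8 RPKM. Of 27 genes of cholesterol and fatty acid synthesis 3 were lower, among them the sterol sensor INSIG1 at 45.6 and 11.9 RPKM and STARD4, a sterol carrier, at 9.22 and 4.89 RPKM, not 2-fold without centring, and the list median was -0.19. The clock list had 2 of 12 lower, NR1D1 at 4.94 and 2.13 RPKM and CCRN4L at 11.9 and 5.55 RPKM. TGF-beta, BMP and Notch targets had 2 of 17, the Notch ligand JAG1 at 114 and 42.5 RPKM and PMEPA1 at 75.3 and 37.6 RPKM. The hypoxia list had 1 of 16, NDRG1, at 70.6 and 31.2 RPKM. In the time model 12 genes of the unfolded protein list fell and 4 rose, 12 of the cholesterol list fell and none rose, 8 of the clock list fell and 1 rose, 7 of the TGF-beta list fell and 6 rose, and 9 of the hypoxia list fell and 5 rose. Over all genes tested 21.3% fell and 28.5% rose, so the shares that rose in the TGF-beta and hypoxia lists, 6 of 17 and 5 of 16, are near that of all genes. Of 327 zinc finger genes 1 was lower (ZNF365, ratio -1.17), and of 17 histone genes 1 (HIST2H2BE, ratio -1.20).

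Lists of growth and structure had no gene past the limit by the deposited values. The median was 0.13 for 27 genes of the cell cycle and DNA replication, 0.12 for 14 heat shock genes, 0.06 for 20 genes of ribosome biogenesis, 0.00 for 14 housekeeping genes and -0.03 for 80 ribosomal protein genes. In the time model 16 of 27 cell cycle genes rose and none fell, and 9 of 14 heat shock genes rose and 1 fell. For ribosome biogenesis 6 genes rose and none fell, and 8 ribosomal protein genes rose and 1 fell. Against 28.5% that rose over all genes tested, the 6 of 20 for ribosome biogenesis is near the background and the 8 of 80 for ribosomal proteins is below it. PCNA, the replication clamp, stood at 359 and 399 RPKM, MCM7, a subunit of the replicative helicase, at 273 and 303, nucleolin, NCL, at 858 and 964, and NPM1 at 823 and 943. The chaperones HSPA8 and HSPB1 stood at 1628 and 1878 and at 994 and 1124 RPKM, GAPDH at 2105 and 2565, RPLP0 at 1606 and 1674, RPL8 at 2866 and 2984, and RPL41 at 3622 and 3465. Squamous keratinocyte genes had a median of -0.42 with none of 20 past the limit, and 11 of 19 tested fell in the time model. Of the 6 that could be split by read set, as described further on, 4 were at least 2-fold lower from the set found only at 2 hr to that found only at 6 hr, with a median of -1.29. Over all split genes 10.6% were lower between these sets. By the deposited values KRT17, a keratin of activated keratinocytes, came closest to the limit at 2487 and 1352 RPKM, a ratio of -0.98. KRT5, the keratin of basal cells, stood at 1702 and 1729 RPKM. Centring decides the sign of the smallest ratios: that of KRT5 was -0.08 with it and 0.02 without, and those of RPL8 and RPLP0 were both -0.04 with it and 0.06 without.

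In the IL-13 pair, the counts of lower genes were like those of the controls for most lists. There, too, 13 cytokine genes, 15 genes of secreted growth signals, 19 immediate early factors, 8 feedback inhibitors, 14 genes of mRNA decay and growth arrest and 6 SRF and YAP targets were 2-fold lower. The counts were 8 against 5 for interferon-stimulated genes and 6 against 0 for squamous keratinocyte genes, differences that were not tested.

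**Figure D3:**
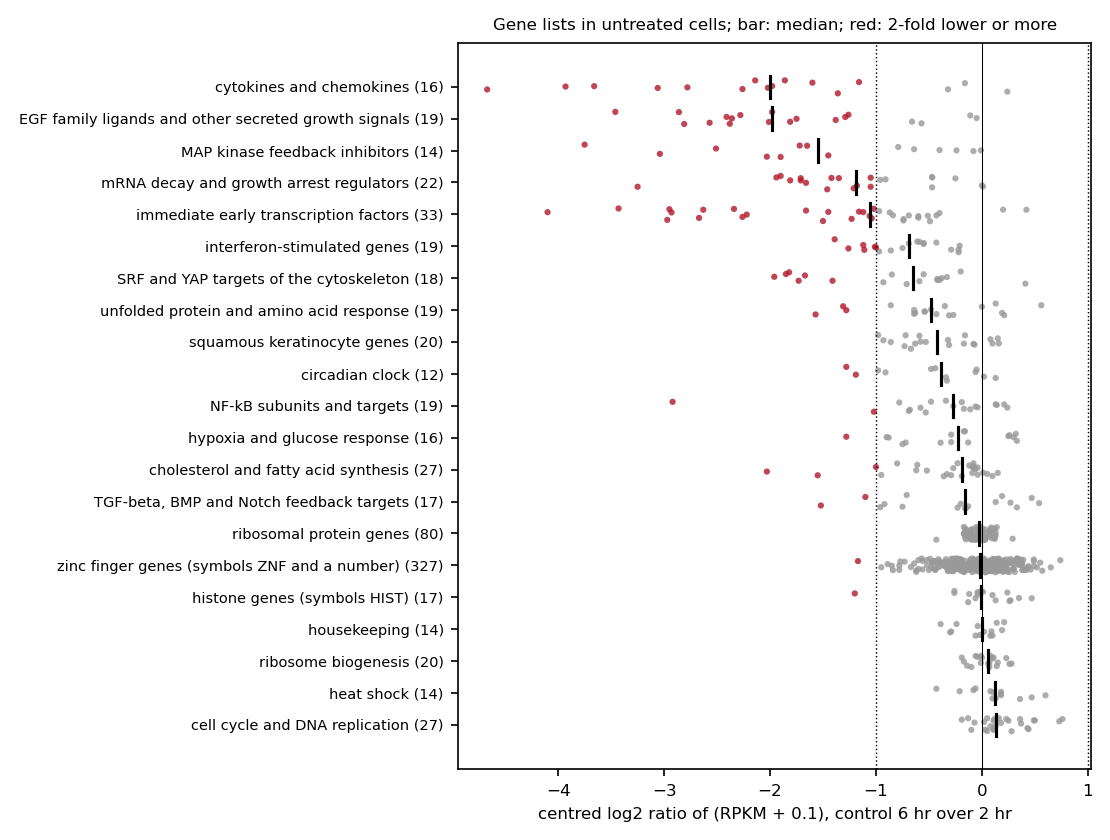
Centred log2 ratio of control 6 hr over 2 hr (x axis) for each gene of 21 lists, with the number of genes in brackets, a bar at the list's median and genes 2-fold lower in red. The medians lie near -2.0 for cytokines and for secreted growth signals (-1.35 and -1.67 with a pseudocount of 1) and at 0.13 for cell cycle genes, and no listed gene lies beyond the dotted line at 1.

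The promoters of these genes were searched for letters bound by factors named above, and for the TATA box and an E2F site, whose factors were not. RefSeq windows (GRCh38.p14) of 300 bases, 250 before and 50 after each transcription start, were matched by symbol for 8492 members and by an older symbol for 900, and both strands were read. The lower genes had 340 windows and the other members 13223. The TATA box, TATAAA, was in 19.1% of the windows of lower genes, in 5.62% of those of other members and in 11.5% of all 35116 windows of the table. Within 20 to 40 bases before the start and on the gene's strand, a range chosen after the values were seen, the shares were 10.6% and 1.33%. The CArG box, the site of SRF, was in 5.00% against 1.04% (1.29% of all windows), and the AP-1 site, TGACTCA, in 8.24% against 3.35% (4.95%). The full cyclic AMP response element, TGACGTCA, the site of CREB, was in 4.41% against 2.84% (1.85%). Shares were close for NF-kB, at 14.4% against 13.4% (11.3%), and lower for the E2F site TTTCCCGC, at 2.06% against 2.53% (1.63%), and for the EGR site GCGTGGGCG, at 0.588% against 1.31% (0.795%). Some RefSeq windows of 1 gene overlap, and no test was made of these shares.

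Windows of named genes show the matches in capitals, each with 10 bases to either side on the gene's own strand. They were picked from lower genes with a match, because the same short motifs recur in genes from different lists. Not all named lower genes had one: the windows of CDKN1A, HBEGF and ERRFI1 held none of the motifs shown. Nor were matches limited to lower genes, as RPLP0 had a TATA box 27 bases before its start. The first 5 windows below hold the TATA box, which began 29 to 32 bases before the start in each.
IL8 (chr4:73740528-73740553, plus strand): agggtgatgaTATAAAaagccaccgg
CCL20 (chr2:227813803-227813828, plus strand): caatatttgcTATAAAtagggccatc
DUSP1 (chr5:172771210-172771235, minus strand): agaggccgcaTATAAAcgcgctcccc
FOSB (chr19:45467956-45467981, plus strand): gtcccgggcaTATAAAtacaggctgg
PTGS2 (chr1:186680440-186680465, minus strand): ttttcagtctTATAAAaaggaaggtt
The cyclic AMP response element stood 125 bases before the start of DUSP1, 65 before that of AREG, 54 before that of MAFF and 52 before that of ZFP36L1.
DUSP1 (chr5:172771303-172771330, minus strand): gcagggcgggTGACGTCAccgccccgtc
AREG (chr4:74445061-74445088, plus strand): ggccgggcctTGACGTCAtgggctgcgg
MAFF (chr22:38201930-38201957, plus strand): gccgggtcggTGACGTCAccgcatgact
ZFP36L1 (chr14:68793451-68793478, minus strand): gtggaatgagTGACGTCAcagccgcgct
The CArG box stood 71 bases before the start of EGR2, 59 before a start of FHL2 and 100 before a start of RND3.
EGR2 (chr10:62816418-62816447, minus strand): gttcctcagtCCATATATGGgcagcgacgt
FHL2 (chr2:105399091-105399120, minus strand): gcgtgcatctCCTTATATGGtcaaatgaca
RND3 (chr2:150487748-150487777, minus strand): ctcccaggctCCATAAAAGGggaggaggca
The distance is measured to the first base of the motif.

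Lower genes were somewhat shorter, with a median span of 16.2 kb against 24.7 kb for all members. The share that was lower was 3.77% of 3047 genes with a span up to 10 kb, 2.39% of 3552 from 10 to 30 kb, 1.90% of 3634 from 30 to 100 kb and 2.60% of 1577 above 100 kb. Peaks of active histone marks, listed by the authors for both treatments in common, were assigned to most lower genes. The time was 6 hr for the IL-13 histone samples and is not given for the control ones. H3K27Ac, a mark of active promoters and enhancers, had a peak at 89.7% of lower genes and 93.8% of other members, and H3K9Ac at 83.5% and 93.4%. H3K4me3, a mark of promoters, had one at 76.5% and 91.3%. Where there was a peak, the authors' mean log2 level was a median of 6.70 against 7.20 for H3K27Ac and 5.82 against 6.09 for H3K4me3.

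The 8 higher genes formed no listed group. LCN2 (chromosome 9, 130911732 to 130915734, plus strand), lipocalin 2, which binds bacterial siderophores, had the highest ratio, 2.06, and stood at 0.934 RPKM at 2 hr and 4.53 RPKM at 6 hr in the controls and at 1.01 and 1.95 RPKM with IL-13. It was at 8.70 RPKM in the control at 24 hr. IGFBP3, which binds insulin-like growth factors, stood at 1.51 and 5.78 RPKM and at 1.46 and 3.39 RPKM with IL-13 (limma, log2 change 1.46, SE 0.181, adjusted p 0.00998). RPPH1, the RNA of RNase P, went from 1.60 to 5.65 RPKM, the lncRNA SFTA1P from 0.877 to 2.34 RPKM and LOC100505865 from 0.533 to 1.35 RPKM. The phospholipase gene PLA2G4B stood at 2.10 and 4.64 RPKM, and at 1.48 and 4.43 RPKM with IL-13. C17orf61-PLSCR3 is a read-through gene and NBPF11 belongs to a family of near-identical copies, so their reads are uncertain; NBPF11 was at 1.19 and 0.790 RPKM with IL-13, in the opposite order to the controls.

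If a control value is the mean of 2 read sets with 1 in common, as the fit gives, the deposited values hold part of their own comparison fixed. A gene absent from the set found only at 2 hr and equal in the other 2 would show a rise of only 2-fold. For any gene, arithmetic then bounds each set: the shared set cannot hold more than 2 times the lower of the 2 values. For IL8 the set found only at 2 hr therefore held between 331 and 345 RPKM and the shared set at most 14.3 RPKM, for NR4A1 between 35 and 37.2 against at most 2.14, for CDKN1A between 199 and 224 against at most 25, and for ERRFI1 between 223 and 256 against at most 33.2. The high 2 hr values of these 4 genes thus came from 1 of the 2 sets behind the 2 hr control.

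Since values were written with 6 significant digits and each set contributes whole reads, the sets could be told apart by a fit for 2761 of the 11810 members. The fit allowed under 0.2 chance solutions per gene, so single splits can be wrong. These genes had lower levels, with a median of 4.51 RPKM in the higher control against 11.9 for all members, and 103 of them (3.73%) were lower and 4 (0.145%) higher by the deposited values. Between the set found only at 2 hr and the set found only at 6 hr, 287 of 2707 genes at 1 RPKM or more in either set (10.6%) were at least 2-fold lower and 171 (6.32%) at least 2-fold higher. From the set found only at 2 hr to the shared set, 339 of 2740 (12.4%) were lower and 211 (7.70%) higher. From the shared set to the set found only at 6 hr there were 26 of 2697 (0.964%) lower and 44 (1.63%) higher. The shared set was thus nearer to the 6 hr set than to the other set behind the 2 hr control. The pairs share sets with each other and were chosen after the values were seen.

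By the same fit the IL-13 values also appear to be means of 2 sets, called larger and smaller here. These were of 16.1 and 13.0 M reads at 2 hr and of 18.3 and 16.4 M at 6 hr. From the larger set at 2 hr to the larger at 6 hr, 76 of 666 genes (11.4%) were lower and 64 (9.61%) higher, whereas from the smaller to the smaller 7 of 631 (1.11%) were lower and 4 (0.634%) higher. Within the 2 hr IL-13 library, from the larger to the smaller set, 101 of 872 (11.6%) were lower and 88 (10.1%) higher, and within the 6 hr library the counts were 15 of 674 (2.23%) and 10 (1.48%). The larger IL-13 set at 2 hr was close to the set found only in the 2 hr control, with 8 of 762 (1.05%) lower and 6 (0.787%) higher. The smaller one was close to the shared control set, with 9 of 841 (1.07%) and 5 (0.595%). The larger IL-13 set at 6 hr was close to the set found only in the 6 hr control, with 9 of 669 (1.35%) and 4 (0.598%). In each arm, 1 of the 2 sets behind the 2 hr value differed from the sets behind the 6 hr value, and the other was close to them. Which cells or times the shared and the smaller sets came from is not given in the labels, so these sets cannot be called 2 hr or 6 hr samples.

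**Figure D4:**
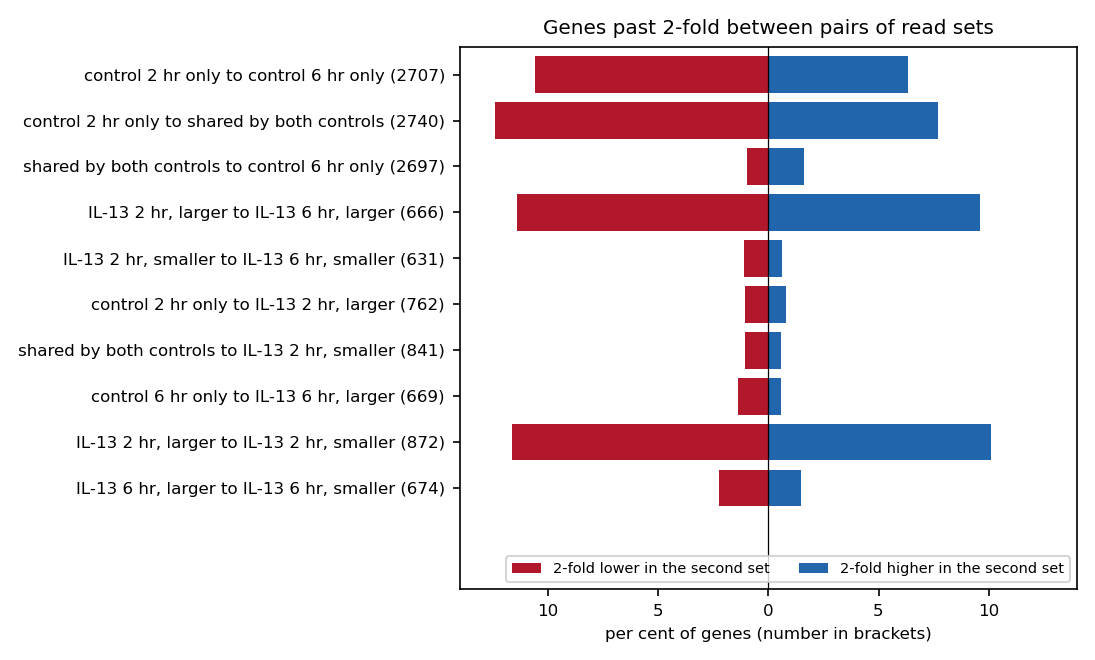
Per cent of genes at least 2-fold lower (red, left) or higher (blue, right) from the first to the second read set of each pair, with the number of genes in brackets. Of the 10 pairs, the 4 that run from the set found only in the 2 hr control or from the larger IL-13 set at 2 hr to a shared, smaller or 6 hr set reach 6.32% to 12.4% on each side, and the other 6 stay at or under 2.23%.

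Genes chosen by the deposited IL-13 pair, which plays no part in the control sets, divided the same way. Of 125 split genes at least 2-fold lower in that pair, 124 were below 0 and 117 were 2-fold lower from the set found only at 2 hr to the set found only at 6 hr. Their median was -2.05, against -1.29 in the deposited control values and 0.07 from the shared set to the 6 hr set. Of 86 split genes at least 1.5-fold higher in that pair, 48 were 2-fold higher and 1 was 2-fold lower between the 2 control sets, with a median of 1.15 against 0.48 as deposited. Because the shared set enters both deposited values, medians further from 0 between the sets than as deposited were fixed in advance.

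For a gene that fell, the ratio between the sets found in only 1 control is steeper than the deposited one. This follows from arithmetic, as the shared set enters both deposited values. Reads of JUN numbered 6859 in the set found only at 2 hr, 443 in the shared set and 528 in the set found only at 6 hr, which is 76.9, 8.49 and 10.4 RPKM. IL8 had 340, 5.00 and 9.29 RPKM, DUSP1 62.7, 2.67 and 2.33 RPKM and HBEGF 24.4, 1.05 and 1.25 RPKM in the same order. PTGS2 had 33.0, 2.18 and 3.03 RPKM and INHBA 107, 7.35 and 9.33 RPKM. FOS, at 12.5, 4.43 and 3.82 RPKM, and IER2, at 60.1, 28.5 and 28.4 RPKM, differed less. In each of these 8 genes the shared set lay with the 6 hr set. Counting error was small beside these differences: the level of JUN in the 6 hr set was 0.135 of that in the 2 hr set (exact 95% interval 0.124 to 0.148), and that of HBEGF 0.0512 (0.0372 to 0.0688). Such intervals cover counting error only.

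The same split brought out genes that the deposited values place well inside the limit, chosen here after their values were seen. SOX2, a transcription factor of stem cells and of esophageal squamous epithelium, was at 10.1 and 16.4 RPKM as deposited, a ratio of 0.60. Its sets held 28 reads (0.415 RPKM) at 2 hr only, 779 (19.7 RPKM) in common and 502 (13.1 RPKM) at 6 hr only, so that the 6 hr set was 31.5-fold above the 2 hr set (exact 95% interval 21.5 to 47.9). PIF1, a DNA helicase, had 0.561, 6.62 and 6.63 RPKM, the cell cycle inhibitor CDKN1B 5.77, 17.8 and 21.2 RPKM, and the transcription factor TFAP4 4.87, 19.3 and 18.8 RPKM.

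HOX genes, which set position along the body axis, were among them. This group was also chosen after the values were seen, so its shares are description only. Of 27 HOX genes at 1 RPKM or more, 24 had a deposited ratio above 0, none was past the limit, and the median was 0.40. In the time model 21 of the 27 rose and 1 fell, where 28.5% rose and 21.3% fell over all genes tested. HOXB4 had 0.238 RPKM in the set found only at 2 hr, 2.66 in the shared set and 2.58 in the 6 hr set, HOXA5 0.360, 2.38 and 2.41, HOXA13 0.533, 2.84 and 3.23, HOXC11 1.48, 8.00 and 7.81, and HOXD13 1.20, 5.36 and 5.06. Of 15 HOX genes that could be split, 6 were at least 2-fold higher from the 2 hr set to the 6 hr set, against 6.32% of all split genes, none was 2-fold lower, and 12 were above 0. HOXB9 was the other way round, at 2.23, 0.990 and 1.5 RPKM. HOXB4 and HOXA5 could be split in all 7 sets: HOXB4 stood at 0.428 and 2.15 RPKM in the larger and smaller IL-13 sets at 2 hr and at 2.20 and 2.48 RPKM in those at 6 hr.

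**Figure D5:**
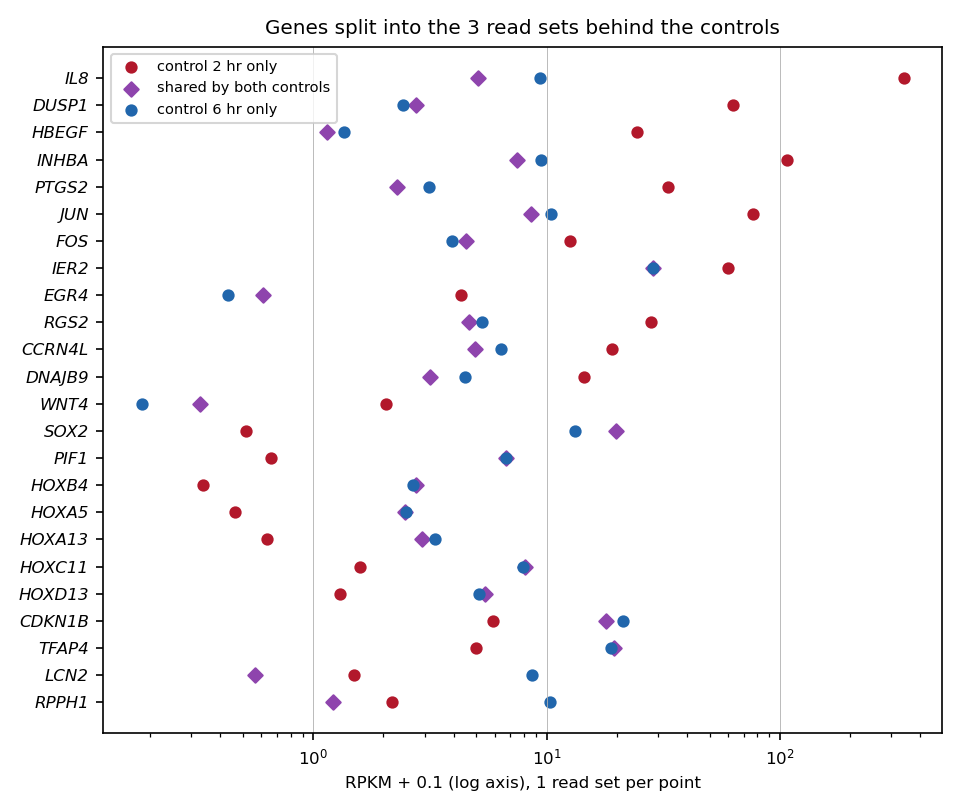
RPKM + 0.1 on a log axis in the 3 read sets behind the controls, for 24 genes that could be split: the set found only at 2 hr (red circles), the shared set (purple diamonds) and the set found only at 6 hr (blue circles). The shared set lies with the 6 hr set for 22 genes from IL8 to TFAP4, and only LCN2 and RPPH1 are high in the 6 hr set alone.

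LCN2 was the reverse case. It had 31 reads (1.40 RPKM) in the set found only at 2 hr, 6 (0.465 RPKM) in the shared set and 108 (8.60 RPKM) in the 6 hr set, 6.12-fold above the 2 hr set (exact 95% interval 4.07 to 9.45). RPPH1 likewise had 19, 6 and 53 reads.

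Transcripts foreign to epithelium moved with the read sets. Over 24 brain-list genes split in all 7 sets, the summed level was 29.7 RPKM in the set found only in the 2 hr control and 6.75 to 8.05 RPKM in the other 6. Among these 7 sets, blood-lineage genes, chosen after the values were seen, were found mainly in the shared control set and in the smaller IL-13 sets. Over 4 of them split in all sets, the sums were 9.02, 6.41 and 7.93 RPKM there, 0.297 RPKM in the set found only at 2 hr, and 0 in the set found only at 6 hr and in both larger IL-13 sets. They were not confined to 2 and 6 hr. Over 6 such genes the sum was 20.4 RPKM in each 24 hr library, with 2 genes at 1 RPKM or more. It was 7.91 and 7.76 RPKM in the controls at 2 and 6 hr. HBB, a globin, had 4.07 RPKM in the shared set, with 3.19 and 2.33 RPKM in the smaller IL-13 sets at 2 and 6 hr, and PPBP, a platelet chemokine, had 2.14, 1.88 and 2.75 RPKM. From the set found only at 2 hr to that found only at 6 hr, 287 of 2707 genes were lower and 171 higher. Between the larger IL-13 sets 76 of 666 were lower and 64 higher. Between the smaller IL-13 sets, which both hold blood transcripts, 7 of 631 were lower and 4 higher. EGR4 had 4.22 RPKM in the set found only in the 2 hr control and 4.66 RPKM in the larger IL-13 set at 2 hr. In the other 5 sets EGR4 had 0.231 to 0.510 RPKM. IL6 was at 3.36 and 3.09 RPKM in those 2 sets and at 0.269 to 1.11 RPKM in the other 5. What the foreign transcripts have to do with the differences between sets was not tested.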

How the data were processed

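RNA of TE-7 cells was sequenced as single reads with standard Illumina protocols, per the labels' protocols. The authors deposited RPKM per gene, per the file headers. The submitters' notes on processing list TopHat2 2.0.9 and DESeq as the authors' tools, and hg19 (GRCh37) as the build. Whether counting used strand, and whether sets were pooled, is not given in the sources used here. Of histone marks, the authors deposited a mean log2 level per peak, per the file headers. The processing notes name Bowtie 1.0.0 and MACS2 2.0.10.20130712 for these.

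The design allowed for counts, but the tables hold RPKM, so ratios were taken on the log2(RPKM + 0.1) scale. On it the change of low genes is understated, and no count model was fitted. The time effect was tested with limma 3.58.1 (two-sided, Benjamini-Hochberg adjusted p under 0.05), over genes of 300 bp or more at 1 RPKM or more in at least 2 of 4 libraries, each centred on its median. Its p-values measure only the spread between the 2 arms, mostly as pooled over genes, and the shared read set narrows that spread. Depths of 13.0 to 26.9 M reads per set, and the reads of each set, were fitted to the steps between low values in genes of 1 exon. For spliced genes the exon length was the one that put both 24 hr values on whole reads. A gene was split only where rounding to 6 digits left 1 solution and under 0.2 chance solutions were expected. The scripts were tested on simulated data. The named genes are the 15 lowest and up to 15 highest ratios past the limit, up to 6 members past it from each list (else the 2 most abundant) and 4 brain-list genes, and others are said to be chosen later or illustrate a list. Genes and lists were chosen with earlier results on these data known. Alternatives to each setting were run. Some named genes are not reported here. Input DNA and the histone ratios between treatments were not used here. Python 3.11.15 and R 4.3.3 were used.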

Additional observations from a re-analysis of the deposited data

Results flagged for a closer look

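TMX2-CTNND1, a read-through transcript of 2 neighbouring genes, was past the 2-fold limit in opposite directions in the 2 arms. Its centred log2 ratio of 6 hr over 2 hr was -1.23 in the controls, at 1.44 and 0.603 RPKM, and 3.67 with IL-13, where it was listed at 0 at 2 hr and at 1.26 RPKM at 6 hr. The difference between the arms was not tested, with 1 library in each group. It overlaps other genes, so its reads are uncertain.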

How the results depend on the processing

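With a pseudocount of 1 or 0.01, a minimum of 0.5 or 5 RPKM, no centring, all spans, or brain transcripts kept in, between 211 and 359 genes were lower. With no minimum 498 were lower and 39 higher, with a 3-fold limit 120 and 4, and with a 1.5-fold limit 814 and 109. The 8 higher genes became 3 with a pseudocount of 1, 13 and 2 with a minimum of 0.5 and 5 RPKM, and 20 with all spans. Among genes that could be split, an alternative added after the values were seen, 103 lower and 4 higher became 287 and 171 from the set found only at 2 hr to that found only at 6 hr, 339 and 211 to the shared set, and 26 and 44 from the shared set to the 6 hr set. The time model's 2511 genes that fell and 3363 that rose became 1350 and 1261 without the treatment term and 0 and 0 with no minimum. Leaving out 1 library each, which also drops the treatment term, gave 140 to 1359 that fell and 3 to 795 that rose. The labels give no replicate numbers, and the treatment term already sets 6 hr against 2 hr within each arm. No named gene past 2-fold changed direction, while near 0 the sign of KRT5, RPL8, RPLP0 and SLC1A3 turned without centring (0.02, 0.06, 0.06 and 0.07), and the latter 3 also with no minimum (0.02, 0.02 and 0.03). Of 85 named genes 11 dropped inside the 2-fold limit with a pseudocount of 1 (C17orf61-PLSCR3, HIST2H2BE, IFIH1, LOC100505865, NBPF11, OASL, PLA2G4B, RSAD2, SFTA1P, STARD4 and ZC3H12A), and OASL, STARD4 and ZC3H12A also without centring. Depth limits low genes most, since the smallest set held 13.0 M reads.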
